A study of Mus musculus with 7 samples.

Results

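The cells described here are luminal hormone-sensing (HS) cells of the mouse mammary gland in which at least 1 transcript of Tph1 was counted. They were chosen by their Tph1 count alone, so Tph1 itself is given as a description and was left out of every test. In all, 521 of 2138 HS cells were Tph1-positive (24.4%), out of 13684 cells in the series. They were set against HS cells of the same mouse in which Tph1 was not counted. The cells came from dissociated abdominal glands of 3 young (3 to 4 months, Young A to C) and 4 aged (13 to 14 months, Aged A to D) nulliparous females. All were analysed in diestrus, their genetic background mixed FVB, 129 and C57BL/6J, and each mouse gave 1 library of unsorted cells. Each mRNA molecule was counted by its unique molecular identifier (UMI). Cell types are those that the authors assigned.

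Tph1 encodes tryptophan hydroxylase 1, the rate-limiting enzyme of serotonin synthesis outside the brain. It converts tryptophan to 5-hydroxytryptophan with the help of tetrahydrobiopterin, and the decarboxylase Ddc then makes serotonin. In the mammary gland, serotonin made by the epithelium is known as a local signal of milk fullness and involution, and prolactin is a known inducer of Tph1 there. HS cells carry the receptors for prolactin, progesterone and estrogen, and alveolar (AV) cells are the luminal cells that make milk.

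Tph1 lies on the minus strand of chr7:46644641-46672537 (GRCm38, GENCODE vM21). RefSeq lists 2 start windows for it, each printed here 5′ to 3′ on the minus strand because Tph1 is the gene that defines the cells. Capitals mark TGACG, the core of the cAMP response element, and CCAAT, the box bound by NF-Y, on either strand.
Tph1 start 1, chr7:46672488-46672787: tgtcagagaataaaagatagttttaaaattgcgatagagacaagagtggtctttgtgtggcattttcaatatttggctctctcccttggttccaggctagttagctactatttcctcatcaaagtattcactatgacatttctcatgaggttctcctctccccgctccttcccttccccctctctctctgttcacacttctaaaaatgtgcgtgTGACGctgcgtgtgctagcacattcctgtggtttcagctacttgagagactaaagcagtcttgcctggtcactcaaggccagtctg
Tph1 start 2, chr7:46667328-46667627: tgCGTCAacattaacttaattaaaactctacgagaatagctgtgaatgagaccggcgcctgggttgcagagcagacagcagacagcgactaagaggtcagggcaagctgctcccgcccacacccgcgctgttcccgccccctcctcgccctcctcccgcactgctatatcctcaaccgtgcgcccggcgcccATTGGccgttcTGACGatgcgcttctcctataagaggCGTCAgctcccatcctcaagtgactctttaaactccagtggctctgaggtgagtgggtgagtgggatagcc
The first window held TGACG once, and the second held TGACG at 3 positions and CCAAT at 1, all without overlap. Of all 32851 RefSeq windows of this length, 20.8% held TGACG and 37.4% held CCAAT. The reads came from the 3′ end of transcripts and do not show which start was used.

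Tph1 transcripts were found mostly in HS cells. These held 2154 of the 2407 Tph1 UMIs of the series, or 89.5%. A UMI was present in 47 of 273 HS-AV cells (17.2%), a luminal class with markers of both lineages. Young mice gave 257 of these HS-AV cells. With the cells of the young mice pooled, the share was 16.3% of HS-AV cells and 15.8% of HS cells. The mice gave unlike numbers of each class, so the pooled shares do not show that the classes were alike. In Young A, B and C, 4 of 12, 26 of 130 and 12 of 115 HS-AV cells had a UMI. In HS cells it was 126 of 422, 33 of 285 and 90 of 864. The share was thus higher in HS-AV cells of Young B, and 10.4% of both classes in Young C. In AV cells, taken as the background level, since free RNA can give a UMI in cells that do not express a gene, the share was 1.37%, at a median of 6632 UMIs per cell against 7277 in HS cells. It was 0.602% in fibroblasts and 0.659% in myoepithelial cells. CPM is the usual count of UMIs scaled to a common library total for the cells summed. Tph1 was at 209 ± 137 CPM in HS cells and at 2.19 ± 1.40 CPM in AV cells (SD, n = 7 mice). In young mice it was at 90.6 ± 45.6 CPM in HS-AV cells and at 75.4 ± 71.7 CPM in HS cells (SD, n = 3). By mouse it was at 121, 112 and 38.1 CPM in HS-AV cells of Young A, B and C. The HS cells of the same mice were at 158, 27.1 and 41.5 CPM. The difference between the classes was not tested.

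The share of HS cells with a Tph1 UMI differed widely between mice. It was 29.9% in Young A (95% Wilson interval 25.7 to 34.4), 11.6% in Young B (8.36 to 15.8) and 10.4% in Young C (8.55 to 12.6). In the aged mice it was 53.1% (45.4 to 60.6), 41.4% (35.1 to 48.0), 52.7% (42.6 to 62.5) and 50% (40.0 to 60.01) in Aged A to D. All aged mice lay above all young mice, and Young A lay apart from the other young mice. The intervals cover counting error alone. The means were 17.3% ± 10.9 (SD, n = 3) and 49.3% ± 5.46 (SD, n = 4), and 9.45% ± 6.19 and 28.4% ± 5.05 when every cell was thinned to 2000 UMIs. Since the share is the measure that chose the cells, no test was made of it. As a share of all epithelial cells the means went the other way and the mice overlapped, with Aged A above Young B and Young C: the positive cells were 5.90% to 13.9% in young mice and 3.69% to 6.67% in aged mice, where HS cells were 7.38% to 12.6% of epithelial cells against 46.4% to 60.2% in young mice.

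**Figure D1:**
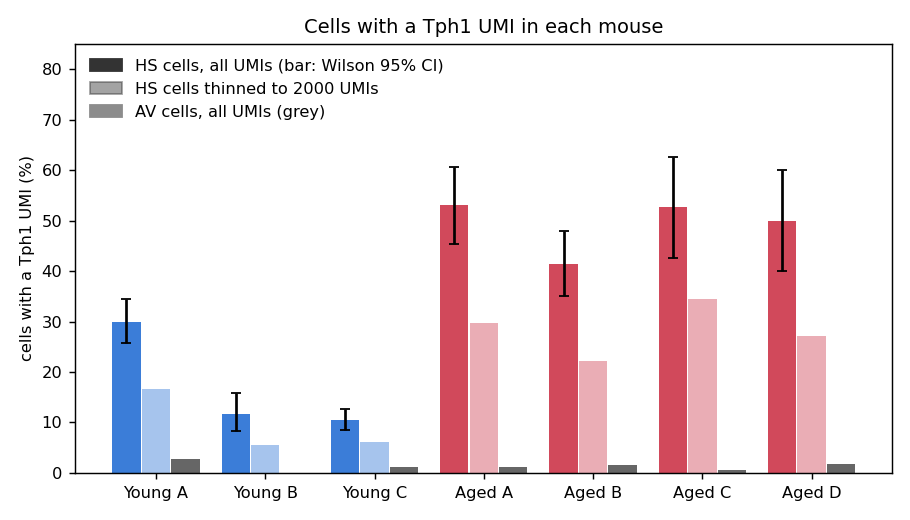
Percent of cells with at least 1 Tph1 UMI (vertical axis) in each mouse, young in blue and aged in red. Dark bars are HS cells with 95% Wilson intervals, pale bars the same cells thinned to 2000 UMIs, and grey bars AV cells; every aged mouse stands above every young mouse in HS cells, and AV cells stay at 2.78% or less.

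The positive cells spanned a wide range of Tph1 counts. Of the 521 cells, 177 held 1 UMI (34.0%), just inside the threshold, 198 held 2 to 4, 98 held 5 to 9 and 48 held 10 or more, up to 44. The last class made up 37.4% of the Tph1 UMIs of HS cells. The 1617 cells just outside the threshold held 0. Cells with 1 UMI were 36.5%, 63.6% and 50% of the positive cells in Young A, B and C, and 22.1% to 26.4% in the aged mice. No cell of Young B held more than 4. Median depth was 7303 UMIs in cells with 1 Tph1 UMI and 7916 in those with 5 or more.

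**Figure D2:**
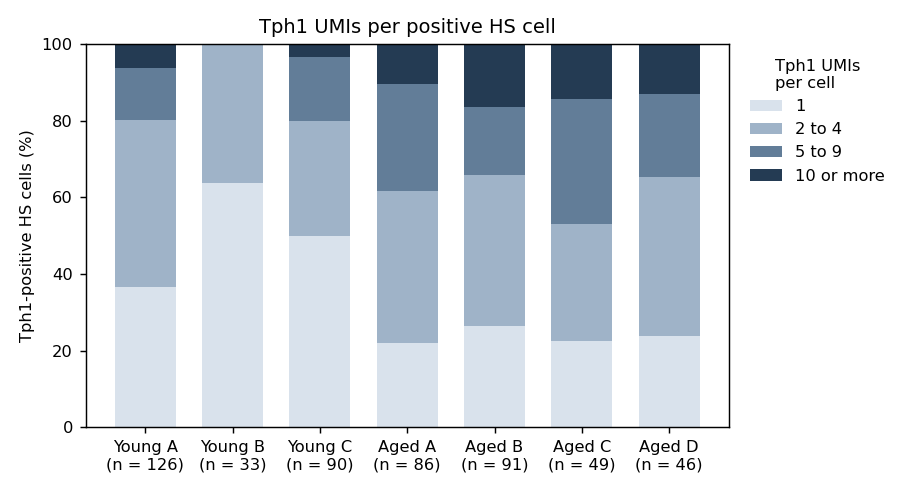
Tph1-positive HS cells of each mouse (vertical axis, percent) divided by their Tph1 UMIs, with the number of positive cells under each bar. Single-UMI cells make up 63.6% in Young B and at most 26.4% in any aged mouse.

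The markers of the HS class were present in the positive cells. Positive cells were each paired with a negative cell of the same mouse and nearly the same number of UMIs, which gave 484 pairs, 33 to 126 per mouse, and left 37 positive cells without a partner. Prlr, the prolactin receptor, had a UMI in 99.0% of paired positive and 98.3% of negative cells, against 18.1% of AV cells. Cited1, a transcriptional co-regulator that marks the HS lineage, had one in 75% of both and in 3.71% of AV cells. For Pgr, the progesterone receptor, the shares were 48.1% and 51.2% (1.99% in AV cells), and for Esr1, the estrogen receptor, 28.1% and 24.2% (2.43%). The paired cells had UMI totals at most 0.1 apart on the log2 scale, but were not matched on genes detected, and no Tph1-positive cell shared its barcode with a positive cell of another library.

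Few genes set Tph1-positive HS cells apart from their paired negative cells. Counts were summed per mouse and status and compared within mice with the quasi-likelihood test of edgeR. Of 4767 genes tested, 3 were higher in positive cells (0.0629% of those tested) and 3 were lower (0.0629%), where a call needed an adjusted p below 0.05 and a difference of 25% or more. At an unadjusted p under 0.05 there were 386 genes, 8.10% of those tested. The median absolute log2 change over all tested genes was 0.12. Leaving out 1 mouse moved the number of higher genes to 6 without Aged C, 8 without Aged D, 6 without Young B and 1 without Young C, and that of lower genes to 7 without Aged D, 5 without Young A and 7 without Young B. With DESeq2 in place of edgeR, 1 gene was higher, Fxyd2, and 0 were lower, with 127 genes at an unadjusted p under 0.05.

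The 3 higher genes are given first, with the lowest, median and highest of the 7 mice for each group of cells. S100a10 (chr3:93555080-93564643), the partner of annexin A2 at the plasma membrane, rose in positive cells. S100a10 was at 390.0, 459 and 671 CPM in Tph1-positive cells and at 317, 379.5 and 479 CPM in Tph1-negative cells. It was higher in 7 of 7 mice (log2 change of 0.39, SE 0.07, n = 7, adjusted p = 0.013). Mtss1 (chr15:58941234-59082005), a regulator of actin at membranes, was higher in 7 of 7 mice. Mtss1 was at 86.1, 163 and 189 CPM in Tph1-positive cells and at 20.7, 93.2 and 139 CPM in Tph1-negative cells (log2 change of 0.59, SE 0.12, n = 7, adjusted p = 0.013). Tppp3 (chr8:105467493-105471526), a tubulin-binding protein, was also higher in 7 of 7 mice. Tppp3 was at 44.3, 53.01 and 138 CPM in Tph1-positive cells and at 29.7, 41.4 and 92.3 CPM in Tph1-negative cells (log2 change of 0.73, SE 0.15, n = 7, adjusted p = 0.023). The ranges of the positive and negative cells overlapped between mice for all 3 genes. S100a10 did not pass without Aged B (adjusted p = 0.073) or Young C (0.11), Mtss1 without Young A (0.051), and Tppp3 without Aged A (0.077), Aged B (0.30) or Young C (0.17). None of them passed in young or aged mice alone. With every HS cell thinned to 2000 UMIs, the log2 change of S100a10 was 0.16 (adjusted p = 0.72). Mtss1 did not pass in thinned cells either (0.56, adjusted p = 0.11). In depth strata, equal numbers of both groups were drawn from bins of UMIs 0.25 wide on the log2 scale. There Mtss1 (adjusted p = 0.080) and Tppp3 (0.058) did not pass.

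The 3 lower genes were 1600014C10Rik, Tmprss2 and R3hdml. 1600014C10Rik (chr7:38183217-38197568), a protein-coding gene named by its clone, was lower in 7 of 7 mice, with Young B nearly equal. 1600014C10Rik was at 4.43, 29.9 and 145 CPM in Tph1-positive cells and at 4.44, 54.0 and 288 CPM in Tph1-negative cells (log2 change of -0.74, SE 0.14, n = 7, adjusted p = 0.013). Its 3 young mice were at 6.36, 4.43, 5.80 CPM in positive and 10.8, 4.44, 8.95 CPM in negative cells. In Aged A to D the values were 29.9, 145, 113, 117 against 54.0, 288, 171, 135 CPM. Without Aged B its log2 change was -0.54 and it did not pass (adjusted p = 0.52). Tmprss2 (chr16:97564682-97611195), a membrane serine protease of secretory epithelia, was lower in 7 of 7 mice. Tmprss2 was at 66.8, 124 and 138 CPM in Tph1-positive cells and at 87.3, 182 and 228 CPM in Tph1-negative cells (log2 change of -0.52, SE 0.10, n = 7, adjusted p = 0.013). R3hdml (chr2:163492318-163502612), a predicted secreted protein, was lower in 6 of 7 mice. R3hdml was at 132, 217 and 487 CPM in Tph1-positive cells and at 157, 311 and 599.9 CPM in Tph1-negative cells (log2 change of -0.50, SE 0.10, n = 7, adjusted p = 0.015). Tmprss2 did not pass without Aged B (adjusted p = 0.083) or Young C (0.093), nor R3hdml without Aged A (0.078) or Young A (0.10). R3hdml passed in young mice alone (log2 change -0.57, adjusted p = 0.0065) and not in aged mice alone (-0.45, adjusted p = 0.26). Tmprss2 passed in neither age alone (adjusted p = 0.16 in young and 0.19 in aged mice), nor 1600014C10Rik in aged mice (0.055). In cells thinned to 2000 UMIs, Tmprss2 (adjusted p = 0.39) and R3hdml (0.14) did not pass, nor did Tmprss2 in depth strata (0.091). When cells were matched on genes detected as well as on UMIs, an alternative chosen after seeing the data, Tppp3, 1600014C10Rik, Tmprss2 and R3hdml did not pass (adjusted p = 0.43, 0.22, 0.073 and 0.30).

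Bmp3, Bcam and Ly6a had low p without passing. Bmp3, a ligand of the TGF-β family, was at 37.1 ± 43.8 CPM in positive and 14.1 ± 10.6 CPM in negative cells (log2 change of 1.21, SE 0.28, n = 7, adjusted p = 0.084). Its highest positive value, 135 CPM, was in Aged C. Bcam, a laminin receptor, had a log2 change of 0.75, SE 0.18, n = 7, adjusted p = 0.084. Ly6a, a surface protein used to mark HS cells, had a log2 change of -0.27, SE 0.07, n = 7, adjusted p = 0.16.

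**Figure D3:**
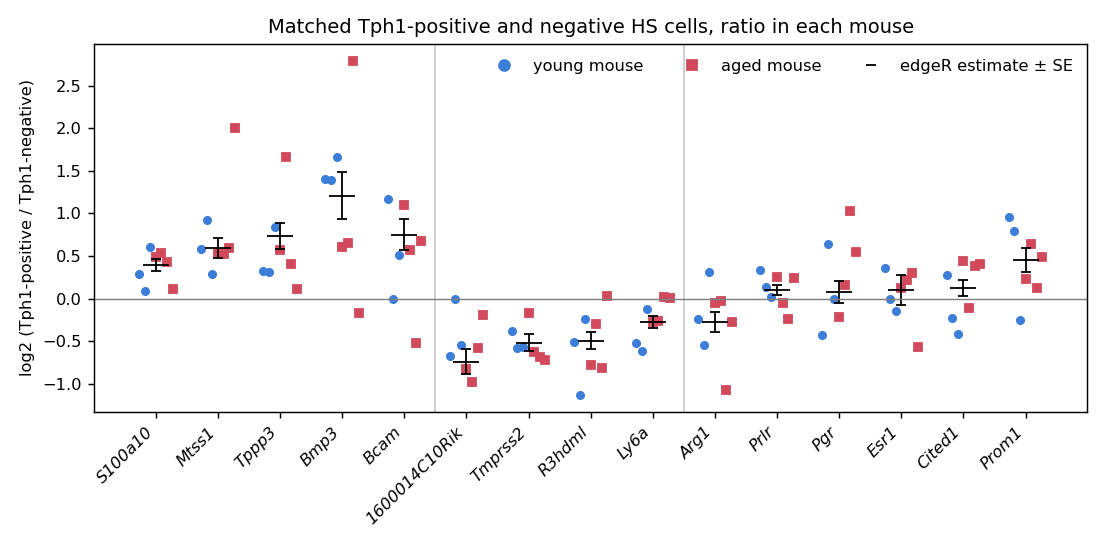
Log2 ratio of matched Tph1-positive to negative HS cells (vertical axis, 1 CPM added) for the 6 called genes, Bmp3, Bcam, Ly6a, Arg1 and 5 HS markers, 1 point per mouse (blue circles young, red squares aged). Bars are edgeR estimates ± SE; S100a10, Mtss1 and Tppp3 lie above 0 and Tmprss2 below 0 in every mouse, 1600014C10Rik lies below 0 with Young B at the line, and the hormone receptors scatter around 0.

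The rest of the serotonin pathway was hardly measured in these cells. Of 17 genes of serotonin synthesis, transport and breakdown, 3 had enough counts to be tested and 0 passed, and 9 had no UMI in any paired cell. Ddc had no UMI in any of the 2138 HS cells, which allows a share of cells with a UMI of up to 0.140%. Tph2, the neuronal hydroxylase, had none either. Slc6a4, the serotonin transporter, and Slc18a2, a vesicular monoamine transporter, had 1 UMI each in all HS cells, and Slc18a1, the other vesicular transporter, had 13. Maob had 4 UMIs. Maoa, a monoamine oxidase that breaks serotonin down, was at 11.6, 26.98 and 68.9 CPM in positive and 8.95, 36.4 and 69.0 CPM in negative cells (lowest, median and highest, log2 change of -0.13, SE 0.19, n = 7, adjusted p = 0.94). The other tested members were Slc3a2, a chain of the tryptophan-carrying amino acid transporter (-0.19), and Ido1, which diverts tryptophan to kynurenine (0.05). The median log2 change of the 3 was -0.13, beside -0.000478 over all tested genes.

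The cofactor of Tph1 gave no call. Of 8 genes that make or recycle tetrahydrobiopterin, 4 were tested and 0 passed, with a median log2 change of 0.14. Pts, the second enzyme of its synthesis, had a log2 change of 0.35, SE 0.19, n = 7, adjusted p = 0.68. Gch1, the entry enzyme of the pathway, was too low to test, with a UMI in 6.40% of positive and 8.68% of negative cells against 34.6% of AV cells. None of 14 serotonin receptor genes could be tested, and 12 of them had no UMI in the paired cells. Of 17 genes of enterochromaffin and neuroendocrine cells, the best known Tph1-expressing cells outside the brain, 11 had no UMI, among them Chga, Chgb, Insm1 and Fev, and the 1 tested, Cyb561, had a log2 change of 0.12, SE 0.12, n = 7, adjusted p = 0.89.

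Hormone receptors and HS markers did not pass the test. Of 13 such genes, 10 were tested and 0 passed, with a median log2 change of 0.08. Prlr was at 944, 1349 and 1791 CPM in positive and 797, 1395 and 1629 CPM in negative cells (log2 change of 0.10, SE 0.06, n = 7, adjusted p = 0.75). The log2 change was 0.08 ± 0.13 for Pgr, 0.10 ± 0.17 for Esr1 and 0.12 ± 0.09 for Cited1. Prom1, which encodes the surface marker CD133, was higher in 6 of 7 mice without passing (log2 change of 0.46, SE 0.14, n = 7, adjusted p = 0.25). It passed when all negative cells were used in place of matched ones (log2 change 0.52, adjusted p = 0.023), and with every HS cell thinned to 2000 UMIs (0.88, adjusted p = 0.026). None of the 26 genes that the study used as an HS signature passed (median -0.04), a list that the study chose on these samples. In the prolactin, Jak2 and Stat5 list 6 of 10 genes were tested and 0 passed (median -0.04), with 4 of the 6 below 0. The highest of them was Jak2 at a log2 change of 0.46 (adjusted p = 0.54). Of 10 paracrine mediators of progesterone and estrogen, 3 were tested and 0 passed: the values were 0.23 for Areg, 0.08 for Wnt4 and -0.08 for Calca. Of 12 cAMP response genes 10 were tested and 0 passed (median 0.02).

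Arg1, which encodes the arginase that turns arginine to ornithine, was found in HS cells with and without Tph1. It was lower in positive cells in 6 of 7 mice without passing (log2 change of -0.28, SE 0.12, n = 7, adjusted p = 0.51). In all HS cells, Arg1 had a UMI in 17.5%, 18.2% and 4.44% of Tph1-positive cells of Young A, B and C, and in 17.9%, 17.9% and 4.65% of negative cells. In Aged A to D the shares were 45.3, 63.7, 42.9 and 56.5% of positive and 48.7, 62.8, 63.6 and 71.7% of negative cells. The share in AV cells was 1.93%. Of 15 genes of arginine and polyamine metabolism, 10 were tested and 0 passed, 9 of them with values below 0 (median -0.19).

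The next lists hold genes that the study found to change with age in HS cells, chosen on these samples. Of 17 genes raised with age, 1 passed, 1600014C10Rik, which was lower in positive cells (beside 0.0629% of all tested genes), and the median of the list was -0.10. Of 12 genes lowered with age, 11 were tested and 0 passed (median 0.00). In the list of immediate early and dissociation response genes, 15 of 18 had values below 0 and 0 passed (median -0.10).

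Several genes differed by degrees with the number of Tph1 UMIs. All HS cells of the 6 mice with cells in every class were used, which leaves out Young B. These values are a description, since the same cells chose the genes, and Crym was chosen after its values were seen. S100a10 was at 384 ± 80.4 CPM (SD, n = 6) in cells with 0 Tph1 UMIs, 399.6 ± 169 with 1, 445 ± 173 with 2 to 4 and 746 ± 230.4 with 5 or more. The mean at 1 UMI lay within the spread of negative cells, with single mice outside it (680.1 CPM in Aged A and 179 in Aged C), and the highest class stood above the negative class in 6 of 6 mice. Mtss1 was at 97.2 ± 40.0, 115 ± 52.1, 119 ± 48.9 and 182 ± 77.9 CPM in the same order, and Tppp3 at 49.5 ± 24.8, 56.1 ± 29.0, 79.6 ± 49.6 and 119 ± 67.4 CPM. At 5 or more UMIs, Mtss1 stood above the negative class in 6 of 6 mice and Tppp3 in 5 of 6. Crym, a cytosolic binding protein of thyroid hormone, was at 30.9 ± 21.7, 39.8 ± 14.7, 67.3 ± 37.6 and 124 ± 102 CPM. Tmprss2 went the other way, from 154 ± 44.3 and 149 ± 49.2 to 119.8 ± 32.6 and 87.3 ± 25.7 CPM, and was below the negative class in 6 of 6 mice at 5 or more UMIs. 1600014C10Rik was at 114 ± 105, 78.1 ± 81.8, 62.7 ± 62.0 and 63.6 ± 56.6 CPM, level between the highest classes and above the negative class in 2 of 6 mice at 5 or more UMIs. R3hdml was at 316 ± 134, 307 ± 120.1, 244 ± 139.5 and 197 ± 147 CPM. Prlr had means between 1247 and 1279.8 CPM in all classes.

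**Figure D4:**
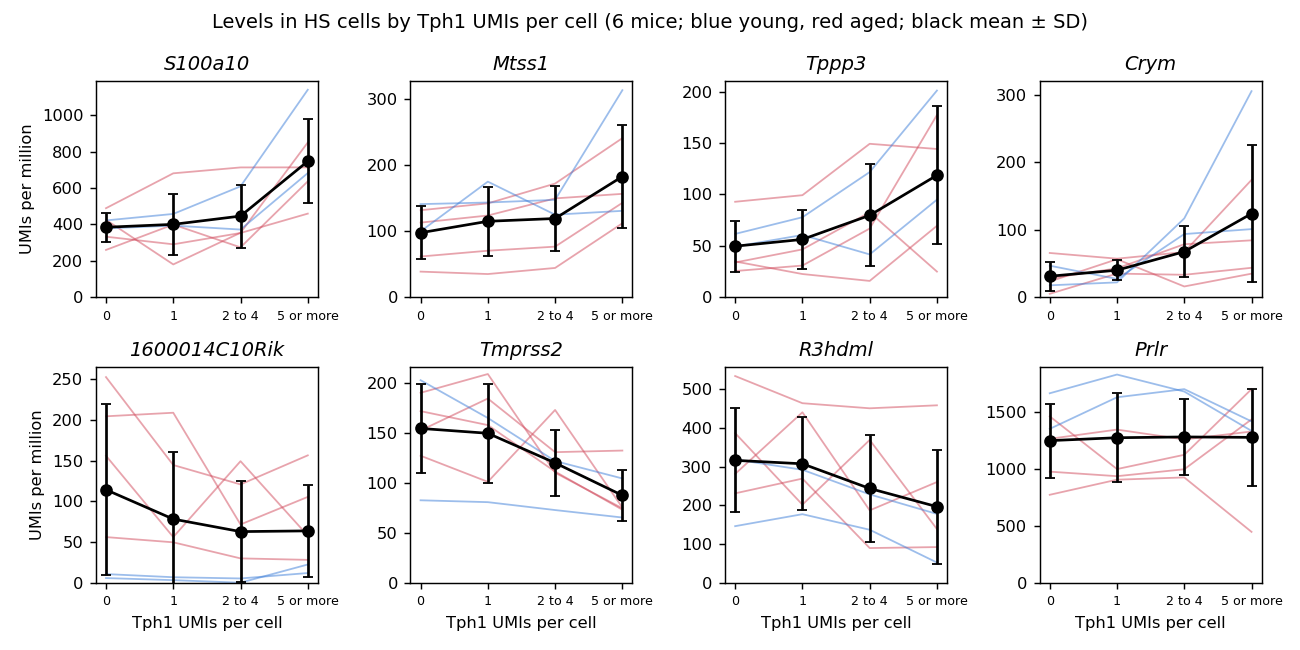
Levels in CPM (vertical axes, from 0) of 8 genes in HS cells grouped by Tph1 UMIs per cell (horizontal axes), thin lines for the 6 mice (blue young, red aged) and black points for the mean ± SD. S100a10, Mtss1, Tppp3 and Crym are highest and Tmprss2 and R3hdml lowest at 5 or more Tph1 UMIs, and Prlr is level.

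With at least 2 Tph1 UMIs required of a positive cell, 3 genes were higher and 2 lower. The higher genes were S100a10 (log2 change 0.53), Tspan13, a tetraspanin (0.45), and Plac8, a small cysteine-rich protein (0.63), and the lower genes were Tmprss2 (-0.79) and AW112010 (-0.35). 1600014C10Rik did not pass there (log2 change -0.51, adjusted p = 0.23), nor did Mtss1 (0.086), Tppp3 (0.27) or R3hdml (0.17). Tspan13 and Plac8 were higher in 7 of 7 mice with 1 or more Tph1 UMIs too, where their adjusted p was 0.13 and 0.10. Tspan13, Plac8 and AW112010 are named after their values were seen.

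The contrast was also fitted in each age group alone. In the young mice 8 genes were higher (0.152% of 5262) and 20 lower (0.38%), and in the aged mice 1 was higher (0.025% of 4006) and 7 were lower (0.175%). No gene was called in both ages. The genes named from here to the interaction test were chosen after their values were seen. In young mice, Crym (log2 change 1.48 ± 0.26, SE, n = 3), Fxyd2, a regulator of the sodium pump (1.00 ± 0.14), and Fam3c, a secreted cytokine-like protein (0.96 ± 0.17), were higher in 3 of 3 mice. Their values in aged mice were 0.92 ± 0.23, 0.84 ± 0.18 and 0.22 ± 0.22 (SE, n = 4), none of which passed. With both ages together and 1 mouse left out in turn, the log2 change was 0.91 to 1.42 for Crym and 0.81 to 1.02 for Fxyd2. Neither passed with edgeR over all 7 mice, where Fxyd2 passed with DESeq2 (0.905, adjusted p = 9.97e-07). Fxyd2 was at 629, 1529, 1502 CPM in the positive and 482, 462, 699.9 CPM in the negative cells of Young A, B and C.

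Alveolar genes were among the genes lower in the positive cells of young mice. Csn3, which encodes κ-casein, was at 45.6, 44.3, 40.6 CPM in the positive and 116, 84.3, 148 CPM in the negative cells of Young A, B and C (log2 change -1.50 ± 0.19). In Aged A to D it was at 121, 65.5, 103, 324 CPM in positive and 143, 80.9, 119, 556 CPM in negative cells (-0.44 ± 0.14), lower in 4 of 4 mice without passing. Trf, transferrin, had a log2 change of -1.27 ± 0.23 in young and 0.13 ± 0.16 in aged mice, and Lcn2, lipocalin 2, of -0.86 ± 0.18 and -0.22 ± 0.15. The summed level of 18 alveolar markers was 328 to 769.7 CPM in positive and 573 to 1235 CPM in negative cells of young mice, lower in positive cells of 3 of 3, and 529 to 1915 against 449 to 1925 CPM in aged mice, lower in 1 of 4. The share of cells with a UMI of at least 1 of 5 alveolar markers was not lower in positive cells of young mice. It was 62.7, 54.5 and 62.2% of positive and 60.3, 54.5 and 51.1% of negative cells of Young A, B and C. Dcn, a fibroblast proteoglycan, was among the genes called lower in young mice (-0.93 ± 0.19). The summed level of the 8 fibroblast markers, Dcn among them, was lower in positive cells in 7 of 7 mice, with a median of 619.6 against 667 CPM. The sum was 319 to 2008 CPM in positive and 488 to 2467 CPM in negative cells, and none of the 8 was at 0 in the paired cells. Dcn alone was at 1715 CPM in positive and 2312 CPM in negative cells of Aged D. Over all 7 mice, 2 of the 8 were tested, Dcn at a log2 change of -0.42 and the other at 0.17. The 13 immune markers were lower in 6 of 7 mice, with a median of 43.5 against 67.9 CPM. Among the alveolar markers Wap was at 0. Going the other way, the 9 myoepithelial markers were higher in positive cells in 6 of 7 mice, with a median of 45.6 against 40.9 CPM, and the 9 endothelial and pericyte markers in 4 of 7, with 75.3 against 62.7 CPM. The part of these cell types in the result was not tested. Over all 7 mice, 0 genes passed among 9 tested of 18 alveolar, 1 of 9 myoepithelial, 2 of 8 fibroblast, 2 of 9 endothelial and pericyte and 1 of 13 immune markers.

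In aged mice, Map1b, a microtubule-associated protein, was higher in positive cells in 4 of 4 mice (log2 change 0.91 ± 0.17), and 0.20 ± 0.16 in young mice. The lower genes included Fos (-0.33 ± 0.06), Jun (-0.40 ± 0.06), Atf3 (-0.58 ± 0.09) and Socs3 (-0.90 ± 0.16), immediate early and feedback genes that are also known to respond to tissue dissociation. Each was lower in 4 of 4 aged mice, and in young mice the values were -0.04 ± 0.09, -0.10 ± 0.09, 0.01 ± 0.10 and 0.16 ± 0.12. Fos was at 2671, 3365, 4542, 2999 CPM in positive and 3518, 4196, 6052, 3385 CPM in negative cells of Aged A to D.

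Whether the contrast differed between ages was tested by an interaction term, and 0 of 4767 genes passed (0%). At an unadjusted p under 0.05 there were 224 genes with edgeR and 34 with DESeq2, which also called 0. The adjusted p of the interaction was 0.098 for Trf, 0.17 for Csn3, 0.62 for Socs3 and 0.79 for Map1b. The calls in 1 age alone are therefore not shown to differ from the other age.

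**Figure D5:**
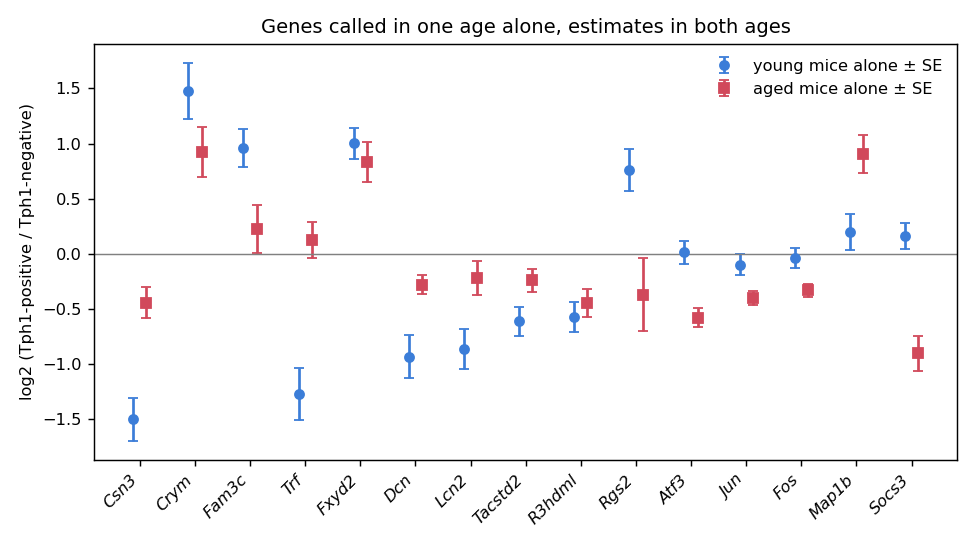
Log2 change between matched Tph1-positive and negative HS cells (vertical axis), fitted in the 3 young mice (blue) and the 4 aged mice (red) alone, ± SE, for genes described in the text that were called in 1 age. Csn3 and Trf are lowest in young mice, and Socs3 in aged mice.

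None of 8 measures of the cells passed the test between the paired groups. Each measure was averaged per mouse and compared by an exact two-sided sign-flip permutation test over 7 mice, with adjustment over 8 measures. The smallest p of this test is 0.0156 where all 7 mice differ. A single measure at that p could not pass after the adjustment. The lack of calls therefore does not show that the groups were alike. Positive cells had 2098 ± 112 genes detected and negative cells 2053 ± 84.7 (SD, n = 7), higher in 6 of 7 mice (exact p = 0.0312, adjusted p = 0.083). Ribosomal protein genes made up 27.2% ± 2.61 and 28.9% ± 2.54 of UMIs, lower in 6 of 7 mice (exact p = 0.0312, adjusted p = 0.083). The share of cells with a UMI of at least 1 of 5 alveolar markers was 80.5% ± 19.7 and 76.4% ± 20. It was higher in 6 of 7 mice and equal in Young B (exact p = 0.0312, adjusted p = 0.083). With 1 mouse equal, this exact p is the smallest that the measure could reach. Mitochondrial UMIs were 4.72% ± 0.517 and 4.53% ± 0.671 (adjusted p = 0.38 by the same exact test).

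Cell-cycle phase was compared in the same way. Cells in S or G2M, as called by the authors, were 33.8% ± 8.02 of positive and 32.7% ± 7.79 of negative cells, higher in positive cells in 3 of 7 mice (exact sign-flip test, adjusted p = 0.94). The mean difference was 1.10 ± 8.04 percentage points. The S score differed by -0.00421 ± 0.00513 (SD, exact adjusted p = 0.19) and the G2M score by -0.000203 ± 0.00560 (exact adjusted p = 0.94). Markers of myoepithelial, fibroblast, endothelial, pericyte and immune cells made up 0.105% ± 0.0472 of UMIs in positive and 0.115% ± 0.0628 in negative cells (exact adjusted p = 0.38).

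Aged and young mice were compared within the Tph1-positive cells. At 1.5-fold, 177 of 5188 genes were higher with age (3.41%) and 100 lower (1.93%). In the paired negative cells 107 of 5110 were higher (2.09%) and 55 lower (1.08%). The difference between these counts was not tested. In positive cells, leaving out 1 mouse gave 104 higher genes without Aged A, 93 without Aged D, and 72, 100 and 55 without Young A, B and C. The lower genes were 53, 47 and 31 without Aged A, C and D, and 21, 45 and 12 without Young A, B and C. In negative cells there were 22, 65 and 32 higher genes without Young A, B and C, and 36 lower genes without Aged C and 13, 33 and 16 without Young A, B and C. Each mouse was 1 library, so age and differences between the libraries of the 2 ages cannot be told apart. In negative cells, BC018473 was at 46.3 to 93.2 CPM in the young libraries and at 0 in the aged libraries. Gm17416 was there at 145 to 342 CPM in the young and at 0 to 2.70 CPM in the aged libraries. In positive cells, Gm17416 was at 91.2 CPM in Aged B and at 0 in Aged A, C and D. Whether the libraries of both ages were counted against the same annotation is not given in the sources used here, which bears on every gene at or near 0 in all mice of 1 age. Ffar4, a receptor for long-chain fatty acids, fell with age in positive cells, from 30.7, 39.9 and 63.8 CPM in young to 3.32, 3.49 and 14.1 CPM in aged mice (lowest, median and highest, log2 change -2.58 ± 0.47, adjusted p = 0.0063). Alox15, a lipoxygenase, fell from 19.1, 53.2 and 76.8 to 1.66, 3.70 and 10.3 CPM (-3.47 ± 0.61, adjusted p = 0.0081). Usp18, an interferon-induced protease, fell from 17.0, 17.7 and 21.7 to 0, 3.70 and 6.64 CPM (adjusted p = 0.035). The young and aged mice did not overlap for any of these. In negative cells Ffar4 also fell (-2.85, adjusted p = 0.031), and Alox15 and Usp18 were too low to test. Cd74, a chaperone of antigen presentation and here also an immune marker, fell from 26.1, 53.2 and 66.8 to 0, 2.36 and 18.3 CPM (adjusted p = 0.044). In negative cells its log2 change was -0.18 (adjusted p = 0.92). The interaction term of status and age did not pass for Cd74 (adjusted p = 0.999988), so its fall is not shown to differ between the groups.

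Higher with age in positive cells were Ak1, an adenylate kinase, at 0, 0 and 3.18 CPM (lowest, median and highest) in young and 14.1, 33.6 and 49.6 CPM in aged mice, Pde6a, a phosphodiesterase subunit, at 0, 0 and 2.12 and 10.3, 22.7 and 48.2 CPM, and Pianp, at 0 in all young mice and 17.7, 28.7 and 47.5 CPM in aged mice. BC023719 was likewise at 0 in young and at 30.8, 37.3 and 42.6 CPM in aged mice. The predicted genes Gm10260, at 4.43, 6.36 and 8.70 CPM in young and 1592, 2756 and 3254 CPM in aged mice, and Gm10036, at 793, 988 and 1524 and 81.6, 175 and 234 CPM, are uncertain, since reads of such genes can be shared with near-identical copies. Adjusted p for these 6 genes was 7.11e-11 to 0.00898. In negative cells Pianp (11.1, 32.9 and 35.0 CPM in aged mice and 0 in young mice, adjusted p = 0.0017) and Gm10260 (log2 change 8.89, adjusted p = 3.91e-08) were also higher, and Gm10036 was lower (-2.57, adjusted p = 7.44e-05). Ak1, Pde6a and BC023719 were too low to test there. Arg1 rose with age in positive cells by 2.85 ± 0.61 on the log2 scale (adjusted p = 0.048) and Maoa by 1.44 ± 0.39 (adjusted p = 0.039). In negative cells the values were 2.80 ± 0.73 (adjusted p = 0.13) and 1.80 ± 0.36 (adjusted p = 0.017). 1600014C10Rik rose with age in both (4.02 and 4.14). S100a10, Mtss1, Tppp3, Tmprss2 and R3hdml did not pass with age in either group.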

How the data were processed

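Single cells of mammary glands were captured with the 10x Chromium 3′ v2 kit, 1 library per mouse, and Cell Ranger 2.0 and the mm10 build are named in the submitters' processing notes. The deposited table held raw UMI counts per gene and cell for 27998 genes and 13684 cells, and the authors' metadata gave cell type, cell-cycle phase, and a score for S and for G2M, for every cell. Depth was 6652599 to 16999625 UMIs per mouse and 2714 to 17158 per cell. The 7 libraries shared 101 cell barcodes, at most 10 per pair of libraries, 2 of them in HS cells and 0 among Tph1-positive cells of 2 libraries.

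The labels name separate mice, taken as the replicates. The cells, gene lists and tests were chosen with earlier results of these data known. HS cells with and without a Tph1 UMI were matched 1 to 1 within each mouse on UMIs other than Tph1 (at most 0.1 apart on the log2 scale). Counts were summed per mouse and status, passed through filterByExpr and TMM scaling, and fitted in edgeR 4.0.16 (R 4.3.3) by the quasi-likelihood test with the mouse as a block, with Benjamini-Hochberg adjustment over all tested genes. A call needed an adjusted p under 0.05 and a level at least 25% higher in 1 of the groups, or 1.5-fold between ages. The fit between ages had no block. Named genes were the 5 of lowest p in each direction, since fewer than 5 were called in each. A level of at least 20 CPM and 1 direction in all mice were required only with 5 or more calls. Also named were a preset set (Arg1, Prlr, Pgr, Esr1, Cited1, Prom1 and serotonin genes), and, for age, the 5 genes of largest change in each direction whose groups did not overlap. R3hdml, Bmp3, Bcam and Ly6a, each with 1 or 2 mice that went the other way, entered by their p. One gene that the rule named is not reported here. Scrublet (scanpy 1.11.5) called 123 doublets (0.899%), 2 of them Tph1-positive HS cells, and they were kept. DESeq2 1.42.0, other matching, thinning, filters and leaving out mice were alternatives. The scripts were tested on simulated data. Promoters came from RefSeq (GRCm38.p6) and gene positions from GENCODE vM21. Intervals are Wilson 95%, and limits for 0 allow 3 counts.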

Additional observations from a re-analysis of the deposited data

Results flagged for a closer look

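Of 44 sets of values tested over the 7 mice, 4 held a mouse far from the other 6, where chance gives about 1 in 20. The log2 ratio of Tph1-positive to negative cells, with 1 CPM added, was 2.005 for Mtss1 in Aged D, where the other mice lay between 0.288 and 0.920. It was 5.76 for Crym in Young B, where Crym was at 0 in negative cells and at 53.2 CPM in positive cells. It was 5.62 for Dmbt1, a secreted scavenger receptor protein, in Aged A, where the levels were 48.2 and 0 CPM. Markers of other cell types made up a smaller part of UMIs in positive than in negative cells of Aged D, by -0.05586 percentage points.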

How the results depend on the processing

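Against 3 higher and 3 lower genes between positive and negative cells, DESeq2 gave 1 and 0, G1 cells alone 0 and 1, unmatched cells 9 and 5, no filter on low counts 18 and 20, young mice alone 8 and 20, aged mice alone 1 and 7, and a 1.5-fold minimum 1 lower. Without the replicate block of the mouse, 0 and 0 passed. Matching on UMIs and genes detected, chosen after seeing the data, gave 1 lower. Leaving out each mouse in turn gave 1 to 8 higher and 2 to 7 lower. The count of genes whose contrast differed between ages was 2 with 2 or more Tph1 UMIs, 8 without matching, 14 without the filter, and 0 to 3 with 1 mouse left out. The 6 called genes kept their direction under every alternative run, and none passed with DESeq2, in G1 cells or without the block.

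With age in positive cells, against 177 higher and 100 lower, no filter gave 321 and 202, a replicate block of the label letters 95 and 31, DESeq2 34 lower, and leaving out mice 55 to 215 and 12 to 119. In negative cells, against 107 and 55, no matching gave 173 and 88, no filter 224 and 144, DESeq2 31 lower, and leaving out mice 22 to 105 and 13 to 48. The letters were not taken as a pairing, since deviations of mice with the same letter correlated at -0.0368, 0.0461 and -0.0268, and not every mouse correlated best with its own letter.

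Signs turned for genes that did not pass over all 7 mice. Of these, Rgs2, Trf and Dmbt1 were called in young mice alone, and Atf3 and Socs3 in aged mice alone. The log2 change was -0.12 for Pgr in thinned cells. In young mice alone it was -0.0764 for Pgr, -0.0796 for Cited1, 0.0139 for Atf3 and 0.164 for Socs3. In aged mice alone it was 0.13 for Trf and -0.37 for Rgs2, a regulator of G protein signaling. Rgs2 was 0.76 in young mice alone (adjusted p = 0.016 with edgeR). It was -0.0709 in depth strata and -0.0300 to 0.585 with 1 mouse left out, the lowest without Young C. Dmbt1 was 0.11 with 2 or more UMIs. The G2M score difference was 0.00291 with 2 or more UMIs, 0.0003 without doublets and -0.00145 to 0.00146 with 1 mouse left out, and the difference in percent of cells in S or G2M phase ran from -1.50 to 2.23 percentage points. The difference in percent of HS cells with a Tph1 UMI (aged minus young) was 32.0 percentage points, 18.9 in thinned cells, -4.03 of epithelial cells, and 28.6 to 38.3 with 1 mouse left out. Causes were not tested. Paired cells came to 33 to 126 per mouse, which limits genes of few counts.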
